A study of Mus musculus with 2 samples.

Results

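The genes described here are those of the solute carrier families Slc1, Slc3, Slc6, Slc7, Slc36, Slc38 and Slc43, which together hold most amino acid transporters of the plasma membrane and the lysosome. The members were taken by name: every gene of the count table whose symbol begins with 1 of these 7 family names counted, which gave 67 of 49492 genes. They were compared between 1 library of mouse mammary basal cells grown alone in a 3D matrix (ctrl, treatment given as none) and 1 library of such cells grown with M2-like macrophages (M2), a co-culture that usually took 11 to 14 days. Both libraries came from wild-type (WT) primary epithelial cells of adult female mammary glands, sorted as basal cells before culture, and shared the EGF-containing medium. The macrophages were derived from bone marrow, polarised with Il-4 and Il-13, held apart from the epithelial cells in a transwell chamber and replaced every second day. The RNA is that of whole colonies and organoids, and both libraries held reads of basal and of luminal marker genes.

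Amino acids cross membranes through carriers that differ in substrate and driving force. Sodium-coupled carriers of Slc1, Slc6 and Slc38 pump their substrates uphill, exchangers of Slc7 trade 1 amino acid for another, and the proton-coupled carriers of Slc36 work mainly at acidic membranes such as that of the lysosome. Several Slc7 proteins reach the cell surface only when paired with a heavy chain of Slc3. When amino acids run short, translation of the transcription factor ATF4 goes up, and ATF4 binds C/EBP-ATF response elements near genes for transporters, amino acid synthesis and tRNA charging. In the mammary gland, amino acid uptake by epithelial cells supplies milk protein synthesis.

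Reads in genes numbered 26912610 in ctrl and 29413844 in M2, and since each group was 1 library, differences have no replicate check. All 15 basal and all 16 luminal marker genes were measured. The basal list summed to 10995 CPM (reads scaled by library total) in ctrl and 11413 CPM in M2, and the luminal list to 6034 and 5423 CPM. By the rule for calls given below, 1 basal gene was called higher (Krt17, 6051 and 16592 reads) and 1 lower (Oxtr, 8324 and 1920 reads). By the same rule 2 luminal genes were called higher and 6 lower, where 14.7% of all genes tested were called in either direction. Of 19 macrophage genes, 8 had no read in ctrl and 7 none in M2, among them Adgre1, Ptprc, Tyrobp and Fcer1g in both libraries, and the list summed to 12.9 and 13.0 CPM. Of the 6 macrophage genes tested, Cd163 (2 and 30 reads) and Aif1 (3 and 40 reads) were called higher and Mertk (64 and 32 reads) lower. Cd68 (170 and 165 reads), Csf1r (94 and 92) and Itgam (3 and 9) were not called. The 10 fibroblast genes summed to 689 CPM in ctrl and 166 CPM in M2 (2 called higher, 4 lower), the 6 adipocyte genes to 16.4 and 8.84 CPM, and the 5 endothelial genes to 2.23 and 2.75 CPM. Of the adipocyte genes, Lep (198 and 6 reads) and Fabp4 (62 and 10) were called lower and Lipe (177 and 243) was not called, and of the endothelial genes, Pecam1 (33 and 76) was called higher and Cdh5 (11 and 2) and Kdr (11 and 0) lower. The part of these markers in the transporter results was not tested, and in bulk RNA fewer cells of a type and less RNA per cell cannot be told apart.

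Co-culture was accompanied by higher reads of a subset of transporters, while the most abundant transporters differed little. Of the 67 members, 37 had at least 10 reads over both libraries and were tested, 15 had fewer reads and 15 had none. A gene was called when the exact binomial test of its reads (two-sided, M2 against ctrl) gave an adjusted p under 0.05 over all 19233 genes tested and the difference was at least 2-fold. By this rule 9 members were called higher in M2, where 8.16% of all genes tested were called higher, and 0 were called lower, where 6.55% of all genes were (14.7% in either direction). The called members were Slc1a2, Slc6a14, Slc7a8, Slc43a3, Slc38a3, Slc7a3, Slc38a1, Slc7a11 and Slc43a2. A further 5 members were higher and 11 lower at an adjusted p under 0.05 with less than a 2-fold difference, and 12 did not pass that threshold. Without the fold threshold, 25 of the 37 members and 53.1% of all genes tested passed it, since small differences pass at this depth. The median log2 fold difference was 0.01 over the 37 members and -0.0032 over all genes tested.

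**Figure D1:**
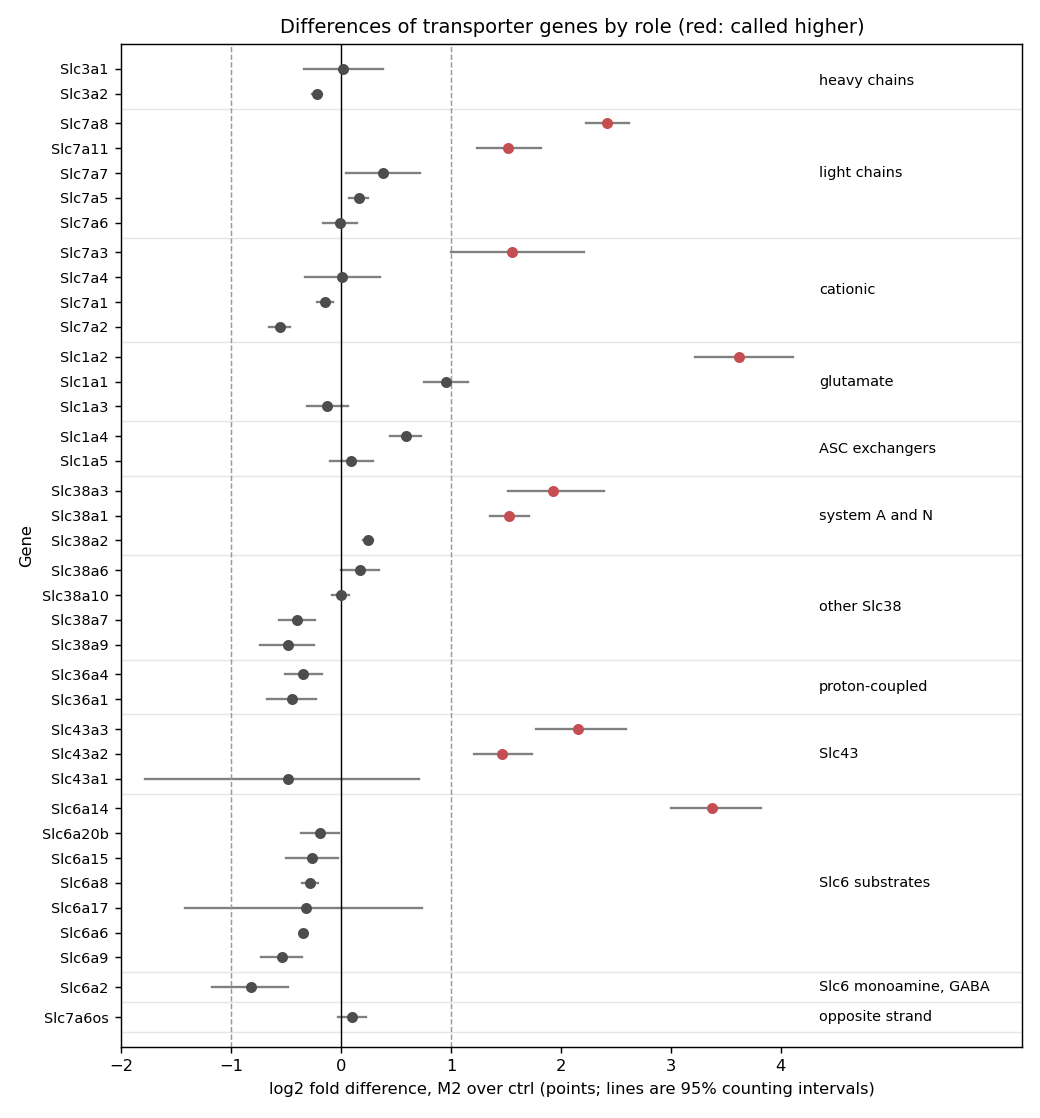
Points give the log2 fold difference (M2 over ctrl, horizontal axis) of each of the 37 transporter genes tested, grouped by role, with lines for 95% counting intervals and dashed lines at a 2-fold difference. The 9 red points, all to the right of the dashed line, are the members called higher, from Slc43a2 at 1.46 to Slc1a2 at 3.62, and no member lies left of -0.82.

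The fold and log2 differences include a scaling factor for library composition, which alone places them slightly above the ratio of the CPM values. They also include a pseudocount of 1, which draws genes with few reads nearer to no difference. For Cd163 the fold difference of 9.85 is therefore below the ratio of its CPM values (0.0743 in ctrl and 1.02 in M2). The test compared those libraries, not the conditions, and its intervals cover counting error only. With a biological coefficient of variation of 0.2 assumed in the exactTest of edgeR, the same 9 members were called higher and 0 lower (5.01% and 3.59% of all genes, or 8.61% in either direction). With 0.4, Slc1a2 and Slc6a14 were left as called (0.91% of all genes were called higher and 0.676% lower, or 1.59% in either direction).

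Summed over all members, the transporters took 1999 CPM in ctrl and 1895 CPM in M2, a log2 ratio of -0.08 (95% interval -0.09 to -0.06). The sum depended on Slc6a6, which alone held 30.4% of the members' reads in ctrl and 24.2% in M2; without it the log2 ratio was 0.0462. The families went different ways. Slc43 had 8.99 CPM in ctrl (95% Wilson interval 7.93 to 10.2) and 26.7 CPM in M2 (24.9 to 28.6), and Slc1 had 71.97 CPM (68.8 to 75.3) and 110.3 CPM (107 to 114). Slc38 went from 461 to 516 CPM and Slc7 from 347 to 363 CPM. Slc6 went the other way, from 788 CPM (778 to 799) to 618 CPM (609 to 627), as did Slc3, from 283 to 234 CPM, and Slc36, from 37.5 to 27.7 CPM. The median log2 fold difference of tested members was 0.59 in Slc1 (5 genes), 1.46 in Slc43 (3), 0.17 in Slc38 (7), 0.13 in Slc7 (10), -0.10 in Slc3 (2), -0.30 in Slc6 (8) and -0.40 in Slc36 (2).

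**Figure D2:**
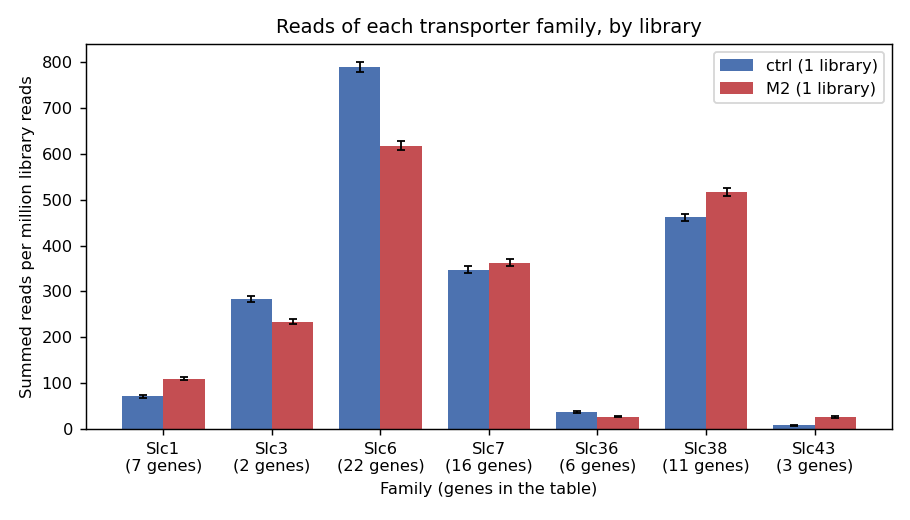
Bars give the summed CPM (reads scaled by library total, vertical axis) of each of the 7 families in the ctrl library (blue) and the M2 library (red), with 95% Wilson intervals of counting error. The bars of Slc1, Slc7, Slc38 and Slc43 are higher in M2 and those of Slc3, Slc6 and Slc36 lower.

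Levels of different genes were compared as RPKM, the CPM divided by the gene length in kilobases. In ctrl the order began with Slc3a2 (79.0 RPKM), Slc6a6 (71.9), Slc38a2 (63.2), Slc6a8 (22.1) and Slc7a5 (21.4). In M2 it began with Slc38a2 (71.9 RPKM), Slc3a2 (65.0), Slc6a6 (54.3), Slc7a5 (22.9) and Slc6a8 (17.4), so the same 5 genes led in both libraries. Below them, Slc7a8 moved from place 20 to place 7 and Slc6a14 from place 30 to place 11, while Slc1a2 moved from 35 to 29. The 10 members with the most reads held 85.8% of the members' reads in ctrl and 80.1% in M2.

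**Figure D3:**
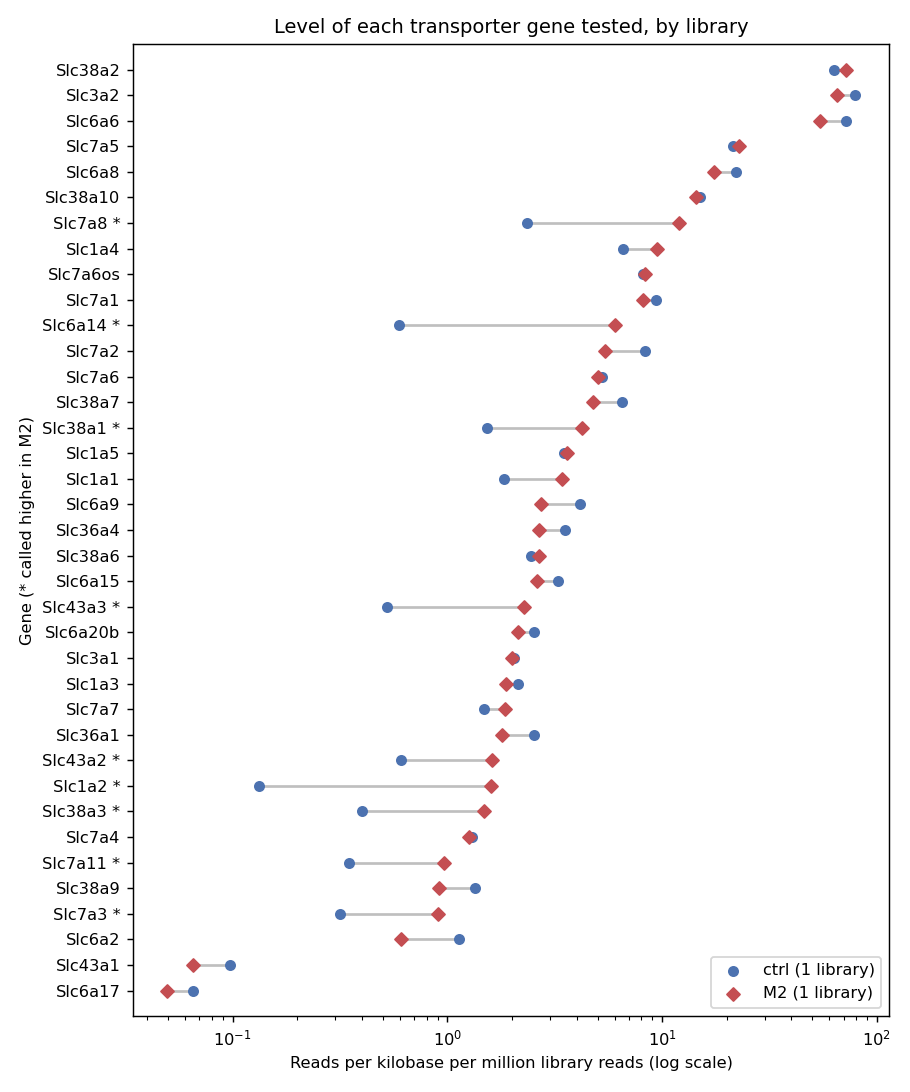
Each line joins the level of 1 tested gene in the ctrl library (blue circle) and the M2 library (red diamond) in RPKM on a log axis, sorted by the level in M2, with a star at genes called higher. The starred genes have the longest lines and lie in the lower and middle part of the order, below the 6 most abundant genes.

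The heavy chains came first among the surface complexes. Slc3a2 (4F2hc or CD98, chromosome 19, 8706882 to 8723369), which brings light chains to the plasma membrane, had 7501 ctrl and 6747 M2 reads, with a log2 fold difference of -0.22 (95% interval -0.27 to -0.17). Slc3a1 (rBAT), the heavy chain best known from kidney and gut, had 127 and 135 reads, and its difference of 0.02 (-0.34 to 0.38) was not separated from 0. Exons of Slc3a1 share 26.4% of their bases with Prepl on the opposite strand, which had 980 and 1125 reads. As the use of strand is not stated, the reads of Slc3a1 cannot be assigned with certainty. Neither heavy chain was called.

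Among the light chains, Slc7a8 and Slc7a11 were called higher. Slc7a8 (LAT2, chromosome 14, 54722216 to 54781886), an exchanger of large and small neutral amino acids, had 254 ctrl and 1426 M2 reads. That is 9.44 and 48.5 CPM, 5.33-fold higher in M2 (95% interval 4.68 to 6.14) at an adjusted p of 4.31e-184 (exact binomial test). Slc7a11 (xCT, chromosome 3, 49892526 to 50443614), which imports cystine in exchange for glutamate and thereby feeds glutathione synthesis, had 131 and 396 reads. It was 2.87-fold higher (2.36 to 3.54; adjusted p = 2.22e-28, exact binomial test), from 4.87 to 13.5 CPM. Slc7a5 (LAT1, chromosome 8, 121881150 to 121907694), the main importer of leucine and other large neutral amino acids in dividing cells, had 2132 and 2498 reads and a log2 fold difference of 0.16 (0.08 to 0.24) that stayed under 2-fold. Slc7a6 (y+LAT2), which exchanges cationic for neutral amino acids, had 648 and 675 reads and a log2 fold difference of -0.01 (-0.17 to 0.15). Slc7a7 (y+LAT1), of like function, had 131 and 179 reads and a difference of 0.38 (0.05 to 0.72). The exons of Slc7a7 share 232 bases with Oxa1l on the opposite strand, and as the use of strand is not stated such reads cannot be assigned with certainty.

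Set against Slc3a2 per length, the light chain genes Slc7a5, Slc7a6, Slc7a7, Slc7a8, Slc7a10 and Slc7a11 together stood at 39.0% of the Slc3a2 level in ctrl and at 65.8% in M2 (30.8 and 42.8 RPKM against 79.0 and 65.0). Slc7a8 went from 2.96% to 18.5% of the Slc3a2 level, which was the largest step. Slc7a5 went from 27.1% to 35.2%, Slc7a11 from 0.44% to 1.49%, and Slc7a10 had no read in either library. Slc7a11 has a long annotated exon length of 13922 bases in the table, so its level per length is low for its reads.

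**Figure D4:**
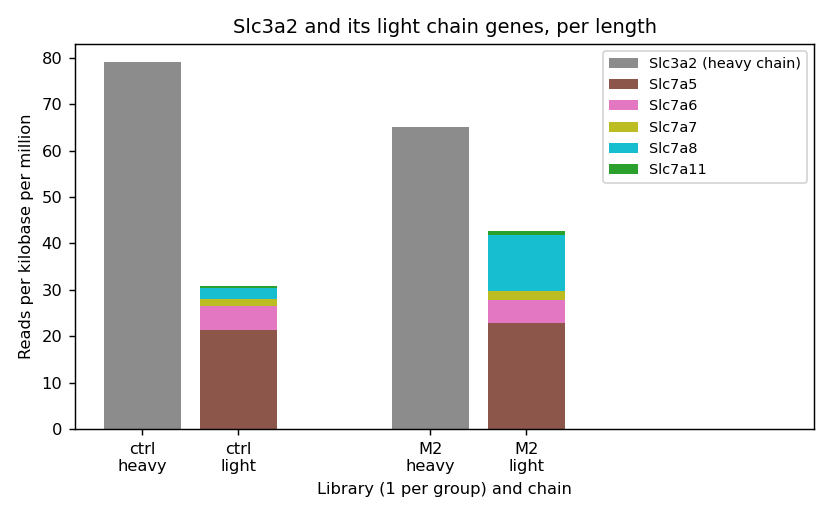
Bars give RPKM (vertical axis) of the heavy chain gene Slc3a2 (grey) and of its light chain genes, stacked, in the ctrl and the M2 library. The grey bar is shorter in M2 (65.0 against 79.0) and the stacked bar taller (42.8 against 30.8), mostly through the Slc7a8 segment.

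Slc7a11 is a textbook ATF4 target, and the bases before its start site hold the element that ATF4 binds. Windows of 250 bases before each RefSeq start site (GRCm38.p6) were searched on both strands for TGATGNAA, the core of the C/EBP-ATF response element, which 3.45% of 32851 windows hold. Of 49 members with a window, 3 held a match (Slc7a11, Slc7a7 and Slc6a21), and among the 6 of 9 ATF4-responsive transporters with a window, Slc7a11 alone did. These 49 members have 70 windows, so counts of members are not directly comparable with the share of windows. Its window held 2 matches, on opposite strands, whose first bases lie 66 and 47 bases before the start site. The windows of Slc7a11, of its heavy chain Slc3a2 and of the 3 members with the largest differences that have 1 window (Slc7a8, Slc1a2 and Slc6a14) are shown 5′ to 3′ on the strand of the gene, with matches in capitals.
Slc7a11 (chr3:50443614-50443863, minus strand): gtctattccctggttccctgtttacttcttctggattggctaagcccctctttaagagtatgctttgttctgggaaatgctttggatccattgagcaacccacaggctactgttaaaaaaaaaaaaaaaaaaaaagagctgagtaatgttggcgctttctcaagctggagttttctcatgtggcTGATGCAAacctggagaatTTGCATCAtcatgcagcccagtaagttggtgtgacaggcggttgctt
Slc3a2 (chr19:8713898-8714147, minus strand): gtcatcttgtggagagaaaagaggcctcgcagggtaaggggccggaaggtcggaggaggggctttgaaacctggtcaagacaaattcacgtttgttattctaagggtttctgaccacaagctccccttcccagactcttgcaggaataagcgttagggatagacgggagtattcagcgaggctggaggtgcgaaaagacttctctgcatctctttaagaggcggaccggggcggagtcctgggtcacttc
Slc7a8 (chr14:54781887-54782136, minus strand): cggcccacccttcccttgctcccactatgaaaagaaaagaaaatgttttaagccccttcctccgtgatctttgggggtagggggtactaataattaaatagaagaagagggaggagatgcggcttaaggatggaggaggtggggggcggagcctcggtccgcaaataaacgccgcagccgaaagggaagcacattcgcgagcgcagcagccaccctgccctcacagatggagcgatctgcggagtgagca
Slc1a2 (chr2:102706188-102706437, plus strand): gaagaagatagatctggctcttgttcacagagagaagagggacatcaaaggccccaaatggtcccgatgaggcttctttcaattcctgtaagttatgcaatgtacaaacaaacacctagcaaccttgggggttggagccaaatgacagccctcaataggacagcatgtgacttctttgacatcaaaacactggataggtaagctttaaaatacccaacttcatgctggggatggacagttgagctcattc
Slc6a14 (chrX:21714650-21714899, plus strand): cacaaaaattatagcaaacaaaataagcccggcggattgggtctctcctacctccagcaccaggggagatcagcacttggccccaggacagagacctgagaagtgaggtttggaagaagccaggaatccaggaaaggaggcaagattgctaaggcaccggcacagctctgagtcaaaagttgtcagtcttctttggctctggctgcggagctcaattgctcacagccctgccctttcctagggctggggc
The last 4 windows hold no match, which says only that these letters are not in these windows. Those of Slc3a2 and Slc1a2 precede RefSeq start sites inside the counted gene spans (chromosome 19, 8706882 to 8723369, and chromosome 2, 102658659 to 102790784). For these genes the bases before the counted spans were not searched. Elements further away or elsewhere in introns were not searched for any gene. The antioxidant response element TGACNNNGC, bound by NRF2, was in 10.2% of all windows. Counted by gene, it was in at least 1 window of 9 of the 49 members, and in 0 of the 5 called members that have a window.

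Of the genes grouped as cationic amino acid transporters, whose best known members carry arginine, lysine and ornithine, 1 was called. Slc7a3 (CAT3, chromosome X, 101079210 to 101086020) had 32 ctrl and 101 M2 reads, 2.95-fold higher (95% interval 2.004 to 4.63; adjusted p = 2.36e-08, exact binomial test), from 1.19 to 3.43 CPM. The far more abundant Slc7a1 (CAT1), present in most cells, had 2918 and 2762 reads and a log2 fold difference of -0.15 (-0.22 to -0.07). Slc7a2 (CAT2), which supplies arginine to nitric oxide synthase and arginase in activated cells, had 2034 and 1448 reads and a difference of -0.56 (-0.66 to -0.46), and Slc7a4 had 139 and 147 reads (0.01, -0.33 to 0.36). With Slc7a14 (2 and 0 reads, not tested), these genes summed to 190 and 152 CPM, and the called gene was the least abundant per length of the 4 tested. None of Slc7a1, Slc7a2 and Slc7a4 reached a 2-fold difference.

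The glutamate transporters held the largest difference of all members. Slc1a2 (EAAT2 or GLT-1, chromosome 2, 102658659 to 102790784), which clears glutamate from synapses in brain, had 47 ctrl and 618 M2 reads. This is 1.75 and 21.01 CPM, 12.3-fold higher in M2 (95% interval 9.31 to 17.2) at an adjusted p of 6.03e-121 (exact binomial test). Its antisense neighbour Gm13872, whose exons share 189 bases with it, had 1 and 50 reads. Slc1a1 (EAAT3), which takes up glutamate, aspartate and cysteine in epithelia, had 305 and 619 reads and a log2 fold difference of 0.95 (0.75 to 1.15) that stayed just under 2-fold. Exons of Slc1a1 share 42.6% of their bases with 4430402I18Rik on the opposite strand, which had 117 and 233 reads, so the value of Slc1a1 is uncertain. Slc1a3 (EAAT1) had 489 and 470 reads and a difference of -0.13 (-0.31 to 0.06). Together the 5 glutamate transporters went from 31.5 CPM (29.4 to 33.7) to 58.0 CPM (55.3 to 60.9).

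The exchangers of alanine, serine and cysteine in the same family differed less. Slc1a4 (ASCT1, chromosome 11, 20302180 to 20332713) had 697 ctrl and 1098 M2 reads, 1.501-fold higher (95% interval 1.36 to 1.65). Slc1a5 (ASCT2), the glutamine exchanger of many dividing cells, had 393 and 440 reads and a log2 fold difference of 0.09 (-0.11 to 0.29). Neither was called.

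Sodium-coupled carriers of glutamine and other small neutral amino acids make up systems A and N of the Slc38 family, and 2 of the 3 tested were called higher. Slc38a1 (SNAT1, chromosome 15, 96571418 to 96642913), a system A importer of glutamine, had 344 ctrl and 1045 M2 reads, 2.89-fold higher (95% interval 2.56 to 3.28; adjusted p = 5.39e-74, exact binomial test). Slc38a3 (SNAT3, chromosome 9, 107650634 to 107669530), a system N carrier of glutamine, histidine and asparagine, had 57 and 230 reads, 3.80-fold higher (2.87 to 5.23). Slc38a2 (SNAT2), the system A carrier induced by amino acid shortage, lies beside Slc38a1 on chromosome 15 and had 7863 and 9778 reads, 1.19-fold higher (1.15 to 1.22). In CPM, Slc38a1 went from 12.8 to 35.5, Slc38a3 from 2.12 to 7.82 and Slc38a2 from 292 to 332, so that the added reads of Slc38a2 exceeded those of both called genes. Slc38a4 (1 and 3 reads) and Slc38a5 (3 and 2 reads) had too few reads to be tested.

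The lysosomal Slc38a7 and Slc38a9 and the proton-coupled members tested had negative values, and none was called. Taking Slc38a7 and Slc38a9 together as lysosomal is not among the roles used for grouping. Over all genes tested, the lower quartile of the log2 fold difference was -0.32. Slc38a9 (SNAT9), which reports lysosomal arginine to mTORC1, had 321 ctrl and 240 M2 reads and a log2 fold difference of -0.49 (95% interval -0.74 to -0.24). Slc38a7 (SNAT7), a lysosomal exporter of glutamine, had 728 and 578 reads (-0.40, -0.56 to -0.24). The proton-coupled Slc36a1 (PAT1), found on lysosomes, had 385 and 296 reads (-0.45, -0.67 to -0.23), and Slc36a4 (PAT4) had 622 and 514 reads (-0.34, -0.52 to -0.17). All 4 passed an adjusted p of 0.05 and stayed under 2-fold. Slc38a10, a less characterised member, had 2586 and 2704 reads and a difference of -0.00486 (-0.08 to 0.07), and Slc38a6 had 515 and 608 reads (0.17, -0.00144 to 0.34).

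The small Slc43 family had 2 called genes of 3. Slc43a3 (chromosome 2, 84936579 to 84958509), which carries purine bases and not amino acids, had 63 ctrl and 298 M2 reads, 4.45-fold higher (95% interval 3.43 to 6.02; adjusted p = 2.55e-34, exact binomial test). Slc43a2 (LAT4, chromosome 11, 75531694 to 75577575), a facilitator of leucine, isoleucine, phenylalanine and methionine, had 164 and 476 reads, 2.76-fold higher (2.31 to 3.32). Exons of Slc43a2 share 9.18% of their bases with Gm45606 on the opposite strand (18 and 41 reads). Slc43a1 (LAT3), its paralog, had 15 and 11 reads, and its difference of -0.48 on the log2 scale had a wide interval of -1.78 to 0.70.

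In the Slc6 family 1 of 8 tested members was called, and the other 7 had negative log2 fold differences. Slc6a14 (ATB0,+, chromosome X, 21714896 to 21742355), a sodium- and chloride-driven carrier that concentrates nearly all neutral and cationic amino acids in epithelia, had 55 ctrl and 608 M2 reads. This is 2.04 and 20.7 CPM, 10.4-fold higher in M2 (95% interval 7.99 to 14.2) at an adjusted p of 6.80e-112 (exact binomial test). Slc6a6 (TauT), the carrier of taurine and the member with the most reads in both libraries, had 16364 and 13508 reads and a log2 fold difference of -0.35 (-0.38 to -0.31). Slc6a8 (CreaT), the creatine carrier, had 3097 and 2673 reads (-0.28, -0.36 to -0.21). Slc6a9 (GlyT1), a glycine carrier, had 572 and 412 reads (-0.54, -0.73 to -0.36), although 27.8% of its exonic bases are shared with Ccdc24 on the opposite strand. Slc6a2 (NET), the noradrenaline carrier, had 191 and 113 reads and the lowest value of any member, -0.82 (-1.18 to -0.48).

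The remaining Slc6 genes tested did not pass an adjusted p of 0.05. Slc6a15, a neutral amino acid carrier of brain, had 320 and 280 reads (-0.26), Slc6a20b had 583 and 535 reads (-0.19) and Slc6a17 had 18 and 15 reads (-0.32). Exons of Slc6a20b share 1800 bases with Sacm1l on the opposite strand, which had 1773 and 1865 reads, and its close copy Slc6a20a had 2 and 0 reads, so reads could be exchanged between them. The only other tested member, Slc7a6os, is not a transporter but a gene named after its neighbour on the opposite strand, and had 924 and 1037 reads (0.10).

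The 30 members that were not tested were mostly carriers known from brain, kidney or gut. Slc1a7, Slc6a5, Slc6a7, Slc6a11, Slc6a12, Slc6a16, Slc6a19os, Slc7a10, Slc7a12, Slc7a13, Slc36a3, Slc36a3os, Slc38a8 and Slc38a11 had 0 reads in both libraries, which allows up to 3 reads, or 0.111 CPM in ctrl and 0.102 CPM in M2. Among the 15 with a few reads, Slc6a4 (the serotonin carrier) had 0 ctrl and 9 M2 reads, Slc6a19 (the main neutral amino acid carrier of gut and kidney) had 0 and 7, and Slc1a6 had 6 and 0. Slc36a2 had 3 and 5 reads, Slc6a13 5 and 1, and Slc6a3 2 and 3. The rest (Slc7a15, Slc7a14, Slc6a21, Slc6a20a, Slc6a18, Slc36a1os and Slc7a9) had at most 3 reads in either library. No member of this group had more than 9 reads in a library.

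The ATF4-responsive list held 9 transporters, Slc7a11, Slc7a5, Slc3a2, Slc7a1, Slc7a3, Slc1a4, Slc1a5, Slc38a2 and Slc6a9. Slc7a11 and Slc7a3 were called higher and 0 were called lower, and the median log2 fold difference was 0.16. That is 22.2% of the list called, beside 14.7% of all genes tested in either direction. Slc1a4, Slc38a2 and Slc7a5 were higher by less than 2-fold at an adjusted p under 0.05, Slc3a2, Slc7a1 and Slc6a9 were lower by less than 2-fold, and Slc1a5 did not pass. Scaled by library total, the summed reads of the list differed little, with 826 CPM in ctrl (95% interval 816 to 837) and 824 CPM in M2 (814 to 834). Its members with the most reads, Slc38a2 (7863 and 9778 reads) and Slc3a2 (7501 and 6747 reads), went opposite ways. Of Slc7a11, Slc7a5 and Slc3a2, which work together as 2 complexes, 1 was called, and their values spread from -0.22 to 1.52. The remaining 7 called members (Slc1a2, Slc6a14, Slc7a8, Slc43a3, Slc38a3, Slc38a1 and Slc43a2) are not on the list.

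Of 31 other genes of the ATF4 pathway, 0 were called higher and 2 lower, and their median log2 fold difference was 0.12. The share called was 6.45%, under the 14.7% of all genes tested. Atf4 itself had 5153 ctrl and 7924 M2 reads and a log2 fold difference of 0.55 (95% interval 0.50 to 0.60) that stayed under 2-fold. Asns, the asparagine synthetase induced by ATF4, had 1117 and 939 reads (-0.32, -0.45 to -0.19). Chac1, which degrades glutathione, had 82 and 152 reads (0.81, 0.42 to 1.23). Trib3, a pseudokinase of the stress response, had 482 and 549 reads (0.12, -0.06 to 0.30), and Ddit3 (CHOP) had 747 and 740 reads (-0.08, -0.23 to 0.07). The called genes were Stc2, a secreted glycoprotein, with 9668 and 2572 reads (-1.98), and Atf3, a stress-induced factor of the ATF family, with 2966 and 895 reads (-1.80). The 20 cytosolic aminoacyl-tRNA synthetase genes, which charge tRNAs, had 16 positive and 4 negative values, 0 calls and a median of 0.14.

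**Figure D5:**
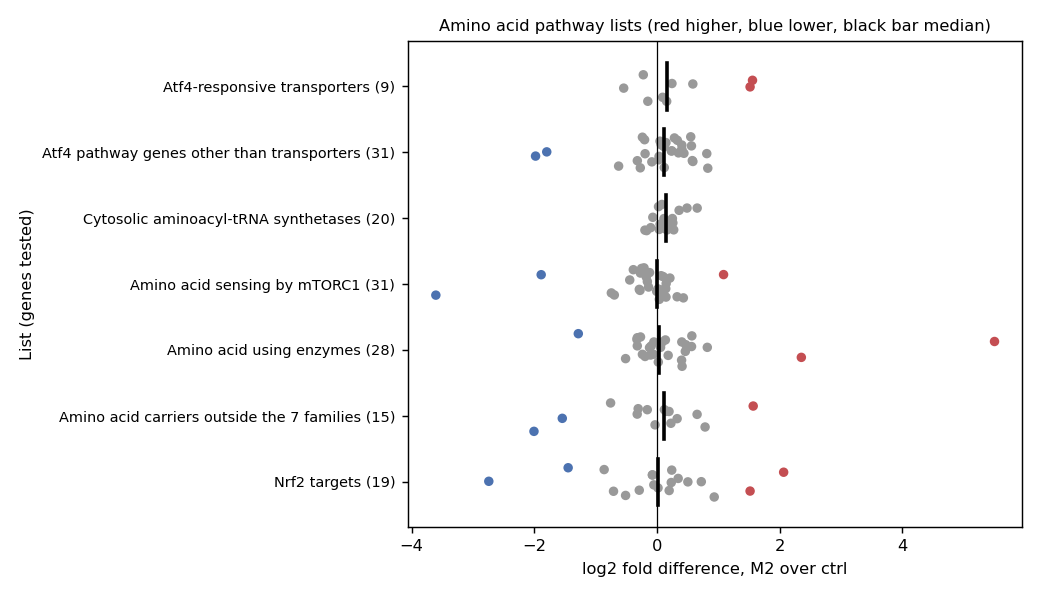
Each point is the log2 fold difference (M2 over ctrl, horizontal axis) of 1 tested gene in 7 lists of amino acid genes, red where called higher and blue where called lower, with a black bar at the median of each list. The medians lie between -0.0038 and 0.16, and in each list most points are grey.

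Among 31 genes of amino acid sensing by mTORC1, 1 was called higher and 2 lower, with a median log2 fold difference of -0.0038. These calls made up 9.68% of the list, under the 14.7% of all genes tested. Gatsl3, an older name of the arginine sensor Castor1, had 34 ctrl and 77 M2 reads (1.09, 95% interval 0.51 to 1.74). Rragb and Rragd, of the Rag GTPases that bring mTORC1 to the lysosome, had 57 and 4 reads (-3.61, -5.83 to -2.47) and 133 and 37 reads (-1.89, -2.48 to -1.38), while the more abundant Rraga (1444 and 1511 reads) and Rragc (1796 and 1670 reads) were not called. Mtor had 1325 and 1494 reads.

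Of 28 tested genes for enzymes that use amino acids, 2 were called higher and 1 lower, with a median log2 fold difference of 0.04. This was 10.7% of the tested genes on the list, under the 14.7% of all genes tested. Nos2, the inducible nitric oxide synthase that consumes arginine, had 2 ctrl and 142 M2 reads, which puts its log2 fold difference at 4.20 or more by the 95% interval. Bcat1, the cytosolic transaminase of branched-chain amino acids, had 18 and 101 reads (2.36, 1.69 to 3.23). Glul, the glutamine synthetase, had 12745 and 5498 reads and a log2 fold difference of -1.28 (-1.33 to -1.24). Glul was thus called lower in the library in which the glutamine carriers Slc38a1 and Slc38a3 were called higher. The glutamine carriers Slc38a2 (1.19-fold higher), Slc1a5 (1.07-fold higher) and Slc38a7 (log2 fold difference -0.40) were not called. Whether these differences are linked was not tested.

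Of 15 tested genes on a list of amino acid and peptide carriers in other families, 1 was called higher and 2 lower (median 0.12). The share called was 20%, beside 14.7% of all genes tested. Ctns, the lysosomal cystine exporter, had 3358 ctrl and 877 M2 reads and a log2 fold difference of -2.005 (95% interval -2.12 to -1.90). Slc17a9, on the list although it is a vesicular nucleotide carrier, had 74 and 26 reads (-1.54), and the mitochondrial glutamate carrier gene Slc25a18 had 25 and 80 (1.57). Of 19 NRF2 targets, which include Slc7a11, 2 were called higher and 2 lower, with a median log2 fold difference of 0.02. Here the share called was 21.1%. Gsta4 was called higher with Slc7a11 (530 and 2333 reads, 2.07), and Gsta2 (50 and 7 reads, -2.74) and Gsta1 (25 and 9 reads, -1.45), close paralogs that could share reads, were called lower. Nfe2l2, which codes for NRF2, had 2187 and 2918 reads (0.35, 0.27 to 0.43) and was not called. The cystine importer Slc7a11 and the lysosomal cystine exporter Ctns were thus called in opposite directions. Ctns acts at the lysosome, and the effect on cystine in the cell was not tested.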

How the data were processed

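RNA of 2 cultures, ctrl and M2, was measured by RNA-seq, 1 library each; the series text calls it a microarray. The authors deposited whole-number counts of reads for each gene, not normalized. The submitters' processing notes name GRCm38 and mm10; the aligner, counting tool, annotation, strand use and read filters are not given in the sources used here. All 67 members overlap the gene of the same name in GENCODE M21 (GRCm38), 56 with the same start and end.

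Genes with at least 10 reads over both libraries were tested (19233). Log2 fold differences (M2 over ctrl) used reads plus a pseudocount of 1 over TMM effective library sizes from edgeR 4.0.16 in R 4.3.3 (factors 1.02 and 0.980), whereas CPM and RPKM used library totals. Each gene had a two-sided exact binomial test with Benjamini-Hochberg adjustment and a 95% Clopper-Pearson interval; sums have 95% Wilson intervals (SciPy 1.17.1, statsmodels 0.14.6). Quasi-likelihood and DESeq2 tests need replicates and could not be fitted; the exactTest of edgeR was run with assumed coefficients of variation. The functions were tested on simulated data. Molecular identifiers are not mentioned, and intervals and the floor of 3 reads cover counting error only. With 1 library per group, p-values compare libraries and carry no spread between cultures.

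All members were counted; a few genes are not reported by name here. Given in full were members that were called, ATF4-responsive transporters and the 15 members with the most CPM, and of the other lists up to 4 called genes per direction plus Atf4, Asns, Chac1, Trib3, Ddit3 and Nfe2l2. Members and lists were chosen with earlier results of these data known, and other genes named (Mtor, Rraga, Rragc) were chosen after their values were seen. Symbols absent from the table were matched through RefSeq synonyms. Among all genes, 26 carry date-like names, none of them a member.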

Additional observations from a re-analysis of the deposited data

How the results depend on the processing

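Alternatives changed a single choice each. Under DESeq2 size factors, upper-quartile factors, both other pseudocounts (0.5 and 5), and the exactTest of edgeR with an assumed coefficient of variation of 0.1 or 0.2, all 37 tested members had the same direction and call, as did the 35 that passed a filter of 1 CPM in both libraries. With library totals the median of all genes shifted by -0.06, and the values of Slc7a4 (-0.048) and Slc3a1 (-0.0408), near 0 in the first place, changed sign. With an assumed coefficient of variation of 0.4, 2 members were called higher: 0 each in Slc7, Slc38, Slc43, the light chains, the cationic and the system A and N groups and the ATF4-responsive list. With a 4-fold threshold, at which 616 of 19233 genes were called higher and 494 lower, 4 members were called higher, 1 each in Slc7, Slc43 and the light chains and 0 in Slc38, the cationic and the system A and N groups and the ATF4-responsive list. Of Slc7a11, Slc7a5 and Slc3a2 alone, 1 was called.

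With a filter of only 1 read, 1566 genes were called higher and 1315 lower. There 1 member was called lower (Slc1a6, 6 and 0 reads), and Slc6a4 (0 and 9 reads) and Slc6a19 (0 and 7 reads) were called higher. This made 2 calls in Slc1, 2 among glutamate transporters, 3 in Slc6 and 2 among its carriers of amino acids, taurine, betaine and creatine. As genes with few reads entered, the medians went to 0.34 in Slc1, 0.0859 in Slc36, 0.93 in systems A and N and 0.41 among glutamate transporters. The summed log2 ratio of all members was -0.0177 with TMM sizes and changed sign to 0.0462 without Slc6a6.

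In the other lists, 0.4 left 0 calls lower in the ATF4 pathway, 0 higher and 1 lower in mTORC1 sensing, 1 higher and 0 lower among enzymes, and 0 in both directions among other carriers and NRF2 targets; 0.2 left 0 higher in mTORC1 sensing and 1 lower among NRF2 targets. With 1 CPM in both libraries, which removes genes near 0 in one of them, 1 was lower in mTORC1 sensing, 0 higher among enzymes, 0 higher and 1 lower among other carriers, and 0 lower among NRF2 targets, whose median was 0.20. Depth limits Slc43a1, Slc6a17 and the 30 untested members. No paired analysis was possible because ctrl and M2 were 1 library each.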
